A study of Mus musculus with 4 samples.

Results

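The 10 genes described here encode receptors with which phagocytes take up modified lipoproteins, glycoproteins, protease complexes and dying cells. They are Mrc1, Msr1, Cd36, Marco, Scarb1, Lrp1, Axl, Mertk, Stab1 and Cd93, found by gene name in a table of 54532 genes, and all 10 were listed. They were measured in DC2.4, an immortalised mouse dendritic cell line, by sequencing RNA in read pairs. Cells had received either vehicle or 10 uM of the compound ginsenoside Rb1 for 24 h. Ginsenoside Rb1 is a triterpene glycoside of ginseng, and the labels do not say what the vehicle was. Each group had 2 libraries, called biological replicates in the labels, and both groups grew in RPMI-1640 with fetal bovine serum, penicillin and streptomycin. All libraries therefore come from 1 cell line, and the labels do not say whether the cultures were grown apart, so a p-value measures the spread between these samples, which may be technical.

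Several of these uptake receptors are pattern receptors of broad taste. The class A receptors Msr1 and Marco bind acetylated or oxidised lipoproteins and bacterial surfaces through collagen-like or cysteine-rich domains. The class B receptors Cd36 and Scarb1 are hairpin membrane proteins that pass lipids to the cell, Cd36 from oxidised lipoproteins and fatty acids and Scarb1 from high-density lipoprotein. Mrc1 is the mannose receptor, a lectin that recycles between surface and endosome, and Lrp1 is a very large endocytic receptor that clears protease-inhibitor complexes, apolipoprotein E particles and cell corpses. Axl and Mertk are receptor tyrosine kinases that bind phosphatidylserine on dying cells through bridging proteins, Gas6 for both and Pros1 for Mertk. Stab1 is a multidomain scavenger receptor of macrophages and sinusoidal endothelium, and Cd93 is a C-type lectin-like receptor of myeloid and endothelial cells, first studied for its part in phagocytosis. In tissue, several of these receptors mark resident macrophages, and dendritic cells use some of them to load antigen.

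The libraries held between 17829784 and 18641021 counts, and 13518 genes had enough counts to be tested. Levels are given as CPM (counts scaled to library size by TMM) for comparisons between groups, as mean ± SD with n = 2, and as the deposited FPKM (counts scaled to library size and to gene model length) for comparisons between genes. A gene was called at an adjusted p under 0.05 in edgeR's quasi-likelihood test over all genes tested. A count of 0 allows up to 3 counts in a library, which is 0.150 to 0.180 CPM. Of the dendritic cell markers, Cd74 (the invariant chain of MHC class II) stood at 1055 ± 2.32 CPM under vehicle and 506 ± 15.9 CPM under Rb1. Irf8, a transcription factor of the lineage, stood at 131 ± 0.203 and 96.3 ± 3.17 CPM, and the surface protein Sirpa at 126 ± 5.94 and 149.7 ± 4.91 CPM. Itgax (CD11c) fell from 28.9 ± 1.90 to 3.32 ± 0.320 CPM, whereas Zbtb46, a transcription factor of classical dendritic cells, rose from 2.03 ± 0.262 to 5.98 ± 0.511 CPM (adjusted p = 6.30e-09 and 6.18e-05). Other markers were near 0: Flt3, the growth factor receptor of dendritic cells, had 0, 0, 2 and 0 counts in the order vehicle 1, vehicle 2, Rb1 1 and Rb1 2, and Clec9a had 1, 0, 1 and 1. The class II chain gene H2-Ab1 had 7 and 15 counts under vehicle and 4 and 5 under Rb1. The macrophage marker Adgre1, which encodes F4/80, stood at 473 ± 24.2 and 282 ± 1.89 CPM.

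The level per length spanned a wide range between the receptors. Cd36 was the most abundant, at 276 and 275 FPKM under vehicle and 209 and 205 FPKM under Rb1. It made up 91.1% of the summed FPKM of the 10 genes under vehicle and 90.0% under Rb1, and 98.2% and 98.5% of the genes tested lay below it. With vehicle the order was Cd36, Scarb1, Lrp1, Stab1, Msr1, Mrc1, Cd93, Axl, Marco and Mertk, and no neighbours in that order overlapped between libraries. With Rb1 the order was the same except that Mrc1 left the sixth place and stood at 0 with Mertk. The summed FPKM of the 10 genes was 302 in both vehicle libraries and 232 and 228 in the Rb1 libraries, a sum that is mostly Cd36.

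**Figure D1:**
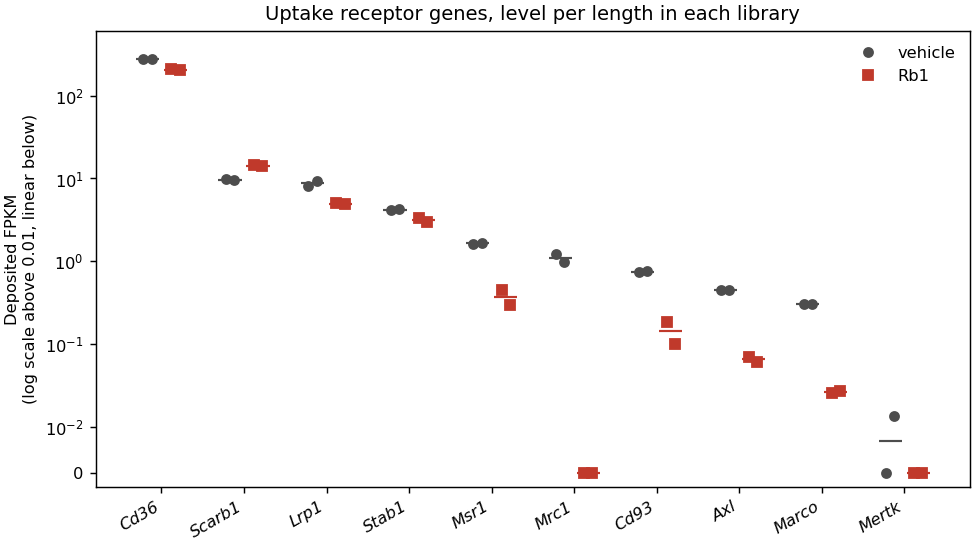
Deposited FPKM of the 10 receptor genes on a log axis that turns linear under 0.01, ordered by the vehicle level, under vehicle libraries as grey circles, Rb1 libraries as red squares and a line at each group mean. Cd36 stands above 200 FPKM in every library, Scarb1 is the gene whose Rb1 points lie above its vehicle points, and Mrc1 drops to 0 in both Rb1 libraries.

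Of the 10 receptor genes, 8 had enough counts to be tested and 2, Marco and Mertk, did not. With Rb1, 7 of the 8 fell and 1, Scarb1, rose. Among all genes tested, 72.0% were called, 35.7% higher and 36.3% lower, so being called is common in this comparison. Lower calls made up 7 of the 8 receptors against that 36.3%, and the difference between these shares was not tested. The median log2 fold change of the 8 was -1.48, against -0.01 over all genes tested. Mrc1 and Axl passed the filter on low counts through the vehicle libraries alone, so the count and the median describe the genes that passed and support nothing further. The groups did not overlap in 8 of the 8, as in 86.3% of all genes tested.

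**Figure D2:**
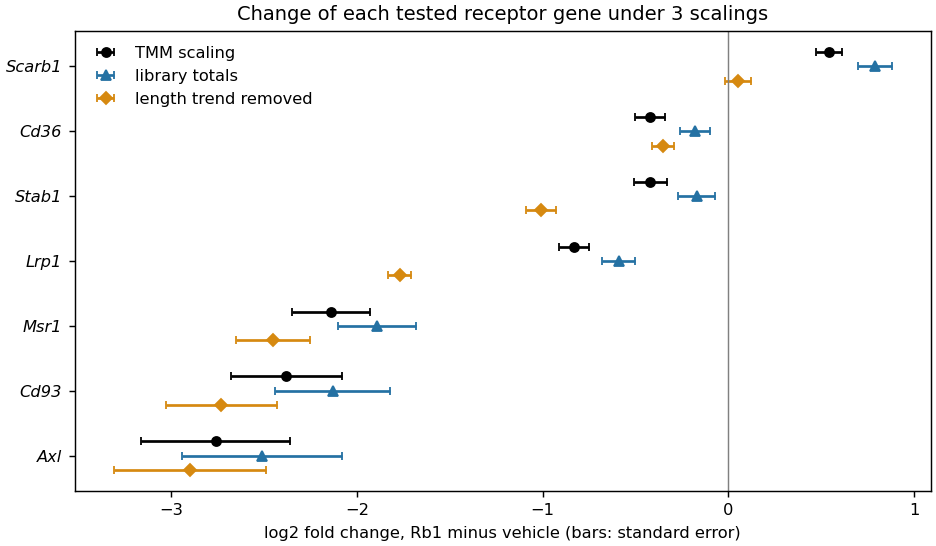
Log2 fold change (Rb1 minus vehicle) of 7 tested receptor genes, with the standard error as bars, under TMM scaling (black circles), library totals (blue triangles) and with the length trend removed (orange diamonds). Axl, Cd93, Msr1 and Lrp1 lie below 0 under each scaling, while Cd36 and Stab1 come nearest to 0 with library totals and Scarb1 with the length trend removed. Mrc1 is not drawn, because with 0 counts in both Rb1 libraries it has a bound and no fold change.

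Mrc1, the mannose receptor gene (ENSMUSG00000026712, GRCm38 chromosome 2, 14229392 to 14332057, plus strand), had 133 and 104 counts under vehicle and 0 and 0 under Rb1. The groups were fully apart, at 7.96 and 6.19 CPM against none. The level fell at least 46.4-fold, with the Rb1 libraries set at the floor of 3 counts each (adjusted p = 2.13e-07). Mrc1 passed the count filter through the vehicle libraries alone. The vehicle level is itself modest, since 19.8% of the genes tested lay below it. The microRNA gene Mir511, which lies within Mrc1, had 0 counts in all 4 libraries. The library kit is not stated, so whether so short an RNA could be counted is not known. Of 12 other genes of the mannose receptor family and endocytic lectins, 6 could be tested, and 6 fell and 0 rose, with a median of -1.34, where 36.3% of all genes tested fell. Of these 6, Mrc2 passed the count filter through the vehicle libraries alone, so the count describes the genes that passed. Mrc2 (Endo180, a collagen receptor of the same family) had 27 and 20 counts under vehicle and 2 and 3 under Rb1, and fell (a log2 fold change of -3.40, SE 0.56, adjusted p = 1.88e-04). Clec7a, the beta-glucan receptor dectin-1, fell 5.50-fold from 6.86 ± 1.13 to 1.25 ± 0.351 CPM (adjusted p = 5.76e-06). The better expressed Clec4e (Mincle, a receptor for mycobacterial cord factor) fell from 200.4 ± 4.10 to 83.8 ± 0.227 CPM, 2.39-fold.

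The start regions of Mrc1, Marco, Axl and Stab1 are shown because these 4 genes carry the same short motif there. Of the 10 genes, 7 had a promoter entry in RefSeq (GRCm38.p6), each running from 250 bases before to 50 after the start. The motif is GAGGAA, the purine box bound by ETS factors such as PU.1, searched on both strands. It is in capitals below, as TTCCTC where it lies on the other strand.
Mrc1, chr2:14229164-14229463, plus strand: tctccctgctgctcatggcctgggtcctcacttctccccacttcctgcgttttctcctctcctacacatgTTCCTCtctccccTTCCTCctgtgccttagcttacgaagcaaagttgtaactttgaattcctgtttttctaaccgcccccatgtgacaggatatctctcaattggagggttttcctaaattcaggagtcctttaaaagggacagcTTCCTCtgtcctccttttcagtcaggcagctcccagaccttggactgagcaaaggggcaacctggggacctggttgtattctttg
Marco, chr1:120504975-120505274, minus strand: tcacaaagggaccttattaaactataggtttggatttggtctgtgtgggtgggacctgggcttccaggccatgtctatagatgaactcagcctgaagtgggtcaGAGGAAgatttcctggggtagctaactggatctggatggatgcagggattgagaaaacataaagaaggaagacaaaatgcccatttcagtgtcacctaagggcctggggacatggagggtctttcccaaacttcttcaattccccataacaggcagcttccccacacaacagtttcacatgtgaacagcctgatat
Axl, chr7:25788684-25788983, minus strand: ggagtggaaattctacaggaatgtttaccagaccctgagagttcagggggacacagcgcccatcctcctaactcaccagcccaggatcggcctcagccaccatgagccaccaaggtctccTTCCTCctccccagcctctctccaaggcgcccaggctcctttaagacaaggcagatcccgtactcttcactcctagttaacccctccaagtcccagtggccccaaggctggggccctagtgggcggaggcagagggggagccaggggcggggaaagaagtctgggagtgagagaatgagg
Stab1, chr14:31168592-31168891, minus strand: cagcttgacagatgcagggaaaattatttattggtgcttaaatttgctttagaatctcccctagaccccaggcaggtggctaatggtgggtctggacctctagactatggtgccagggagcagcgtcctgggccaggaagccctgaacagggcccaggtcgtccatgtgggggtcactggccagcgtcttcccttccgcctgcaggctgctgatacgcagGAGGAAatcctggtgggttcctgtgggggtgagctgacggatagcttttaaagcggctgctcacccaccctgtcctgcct
Mrc1 holds the motif 3 times, with first bases at -180, -167 and -35 from the start, Marco holds it at -146, Axl at -130 and Stab1 at -30. The 3 other windows, of Cd36, Lrp1 and Mertk, do not hold these letters, and Cd36 and Lrp1 were lower under Rb1 as well. Of 27025 promoters of this length, 28.3% hold it, so a match is common, and it is a description and not a measured site. Searches on both strands for the core promoter box TATAAA, the AP-1 element TGANTCA, the interferon regulatory factor element GAAANNGAA, the NF-kB element GGGANTTTC and the hypoxia core ACGTG gave no match in the 7 windows. Of all promoters, 14.2%, 7.93%, 8.57%, 1.15% and 19.7% hold them, in that order. Spi1, which encodes PU.1, stood at 204 and 177 CPM under vehicle and at 101 and 108 CPM under Rb1. Whether PU.1 bears on the level of these receptor genes was not tested.

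Both class A genes had fewer counts under Rb1. Msr1 (ENSMUSG00000025044, chromosome 8, 39581685 to 39642673, minus strand), the macrophage scavenger receptor, had 174 and 178 counts under vehicle and 57 and 37 under Rb1. The Rb1 libraries were apart from the vehicle libraries by more than they were from each other. Msr1 fell 4.42-fold, from 10.5 ± 0.122 to 2.38 ± 0.664 CPM (a log2 fold change of -2.14, SE 0.21, adjusted p = 2.44e-06). Marco (ENSMUSG00000026390, chromosome 1, 120474538 to 120505024, minus strand), a receptor for bacteria and particles, had 10 counts in each vehicle library and 1 in each Rb1 library. That is too few for the test. Its summed counts of 20 and 2 give a ratio of 11.8 between vehicle and Rb1, with an exact 95% interval from 2.86 to 104 that covers counting error only. Without the count filter the same test gave a log2 fold change of -3.38 (SE 1.05, adjusted p = 0.0034).

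Among 14 other scavenger receptor genes only 5 could be tested, of which 4 fell, 0 rose and 1 did not pass, with a median of -0.55. Of all genes tested, 36.3% fell and 35.7% rose. Scarf2, the gene that did not pass, met the count filter through the Rb1 libraries alone. Colec12, a class A relative with a collectin head, fell 2.86-fold from 132 ± 9.57 to 46.2 ± 0.214 CPM (adjusted p = 2.78e-08). Megf10, an engulfment receptor of astrocytes, fell 2.52-fold from 60.0 ± 6.57 to 23.8 ± 0.792 CPM (adjusted p = 3.06e-07). Cd68, a lysosomal glycoprotein used as a macrophage marker, fell from 844 ± 25.3 to 575 ± 3.44 CPM, 1.47-fold (adjusted p = 4.88e-05), but with the length trend removed its log2 fold change was -0.03 (adjusted p = 0.664). Scarb2, the lysosomal class B protein LIMP-2, fell least, from 155 ± 2.73 to 127 ± 0.890 CPM (a log2 fold change of -0.29, adjusted p = 0.00241), and it lost its call with library totals (-0.05, adjusted p = 0.636) and without either Rb1 replicate (-0.28 and -0.29, adjusted p = 0.0813 and 0.0639).

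The class B genes went opposite ways. Cd36 (ENSMUSG00000002944, chromosome 5, 17781690 to 17888801, minus strand) stood at 1003 and 992 CPM under vehicle and at 749 and 738 CPM under Rb1. The groups did not overlap, and the gap was far wider than the spread within either. Cd36 fell 1.34-fold, from 997 ± 8.01 to 744 ± 8.20 CPM (a log2 fold change of -0.42, SE 0.08, adjusted p = 4.05e-04). Scarb1 (ENSMUSG00000037936, chromosome 5, 125277087 to 125341094, minus strand), which takes cholesteryl ester from high-density lipoprotein, stood at 84.0 and 82.7 CPM under vehicle and at 122 and 120.0 CPM under Rb1. Both Rb1 libraries lay above both vehicle libraries. Scarb1 rose 1.45-fold, from 83.3 ± 0.918 to 121 ± 1.75 CPM (a log2 fold change of 0.54, SE 0.07, adjusted p = 3.98e-05). The ratio of Cd36 to Scarb1 in FPKM, which needs no scaling between libraries, was 28.3 and 28.4 under vehicle and 14.5 and 14.6 under Rb1, though it too holds the trend with gene length. The sizes of both changes depend on the scaling. Under library totals Cd36 lost its call (-0.18 on the log2 scale, adjusted p = 0.0554), and Scarb1 lost its call when the trend with gene length was removed (0.05, adjusted p = 0.474).

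Thbs1, whose product thrombospondin binds Cd36 and bridges it to dying cells, passed the count filter through vehicle alone and fell 31.8-fold, from 8.05 ± 0.977 to 0.253 ± 0.0661 CPM (adjusted p = 8.56e-08). Among genes that handle lipid and cargo after uptake, 8 of 13 fell, 3 rose and 2 did not pass, with a median of -0.29. Under library totals 5 rose in place of 3. The shares over all genes tested were 36.3% lower and 35.7% higher. Plin2, the coat protein of lipid droplets, fell 7.90-fold from 4552 ± 93.7 to 576 ± 11.5 CPM (adjusted p = 3.24e-10), and Npc2, which carries cholesterol in the lysosome, fell 4.39-fold from 1183 ± 107 to 269.7 ± 3.54 CPM (adjusted p = 3.46e-09). The other way, Lipa, the lysosomal acid lipase that splits cholesteryl esters, rose from 146 ± 2.81 to 324 ± 1.03 CPM, 2.22-fold (adjusted p = 5.62e-08). Cltc, the clathrin heavy chain, rose 2.29-fold from 276 ± 31.9 to 632 ± 5.48 CPM (adjusted p = 3.01e-07). With the length trend removed Cltc stood at 0.71 on the log2 scale, from 1.19, still called. Abca1, the cholesterol exporter that also serves in engulfment, fell from 63.9 ± 4.91 to 34.4 ± 0.490 CPM, 1.86-fold (adjusted p = 3.04e-06), and stood at -1.49 in place of -0.89 on the log2 scale with the length trend removed.

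Lrp1 fell, and its relatives were divided. Lrp1 (ENSMUSG00000040249, chromosome 10, 127538161 to 127621148, minus strand) stood at 148 and 164 CPM under vehicle and at 88.5 and 86.3 CPM under Rb1. Both Rb1 libraries lay well under the lower vehicle library. The level fell 1.78-fold, from 156 ± 11.5 to 87.4 ± 1.55 CPM (a log2 fold change of -0.83, SE 0.08, adjusted p = 1.97e-06). The antisense gene Gm16217 lies across Lrp1 but shares 0 exon bases with it, and had 9 and 9 counts under vehicle and 2 and 1 under Rb1. Lrpap1, the chaperone RAP that keeps Lrp1 and its relatives free of ligand during their passage through the endoplasmic reticulum, fell 5.28-fold from 987 ± 74.0 to 187 ± 3.57 CPM (adjusted p = 1.15e-09). Per length, chaperone RNA exceeded Lrp1 RNA by 30.3 and 24.5 times under vehicle and by 8.96 and 9.44 times under Rb1. That ratio also holds the trend with gene length: once it was removed, Lrpap1 stood at -2.41 and Lrp1 at -1.77 on the log2 scale, from -2.40 and -0.83.

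Lrp8, the apolipoprotein E receptor 2, rose from 34.5 ± 3.10 to 103 ± 2.59 CPM (adjusted p = 3.27e-08), and Sorl1, a sorting receptor of the same family, rose 3.06-fold from 75.0 ± 10.3 to 229.6 ± 1.42 CPM (adjusted p = 3.34e-08). With the length trend removed Lrp8 stood at 0.97 and Sorl1 at 0.96 on the log2 scale, from 1.58 and 1.62, both still called. Lrp6, a co-receptor for Wnt proteins, rose 1.83-fold from 40.9 ± 1.42 to 74.8 ± 1.01 CPM (adjusted p = 1.81e-06), but its model is long, and with the length trend removed it stood at 0.09 on the log2 scale (adjusted p = 0.256). Among all genes tested, 35.7% rose and 36.3% fell. Over 13 genes of the family and its chaperone besides Lrp1, 10 were tested: 4 rose, 5 fell and 1 did not pass, with a median of -0.02. The split moved with the scaling, since 3 fell under library totals and 2 rose with the length trend removed.

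**Figure D3:**
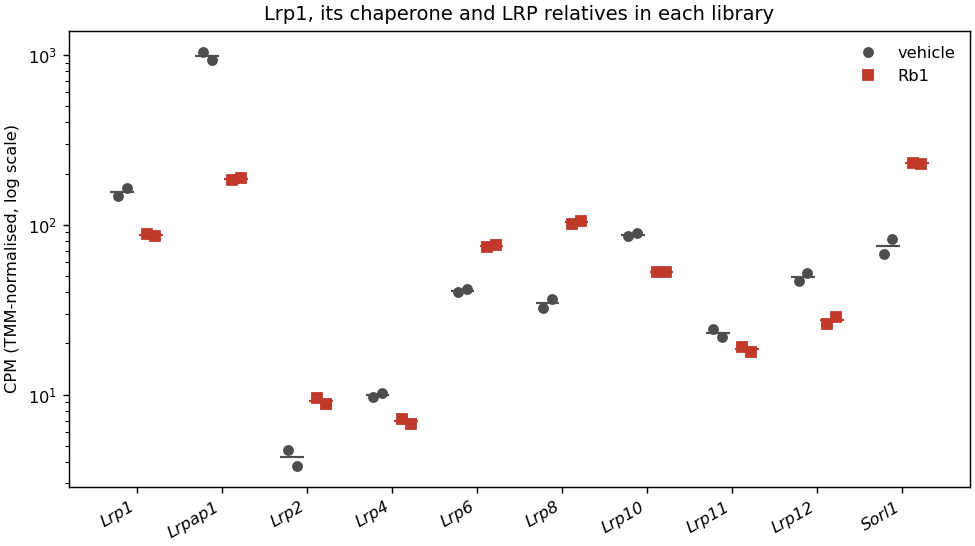
CPM on a log axis of Lrp1, its chaperone Lrpap1 and the tested LRP relatives named on the axis, per library, with a line at each group mean (vehicle grey circles, Rb1 red squares). Lrp1 and Lrpap1 are lower under Rb1, and Lrp8 and Sorl1 are higher, with Sorl1 moving from a mean of 75.0 to 229.6 CPM.

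The receptor kinases for phosphatidylserine were scarce. Axl (ENSMUSG00000002602, chromosome 7, 25757273 to 25788705, minus strand) had 38 counts in each vehicle library and 7 and 6 in the Rb1 libraries. The groups were apart, and Axl fell 6.88-fold, from 2.27 ± 0.0101 to 0.330 ± 0.0285 CPM (a log2 fold change of -2.76, SE 0.40, adjusted p = 7.45e-05). Axl passed the count filter through the vehicle libraries alone. Counting error alone puts the ratio of the summed counts between 3.79 and 13.5. Mertk (ENSMUSG00000014361, chromosome 2, 128698956 to 128802894, plus strand), the kinase of macrophages that clear dying cells, had 0 and 1 counts under vehicle and 0 in both Rb1 libraries, which is under the floor in each. No difference in Mertk was detectable at this depth. Tyro3, the other member of the kinase family, had 4, 2, 0 and 1 counts in the same order of libraries and could not be tested.

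Their bridging ligands were uneven. Gas6, which binds Axl and Mertk, had 0 counts in all 4 libraries. Pros1, which encodes protein S, a ligand of Mertk, had 11 and 15 counts under vehicle and 91 and 73 under Rb1. It rose 5.36-fold from 0.775 ± 0.165 to 4.16 ± 0.552 CPM (a log2 fold change of 2.41, SE 0.31, adjusted p = 2.66e-05). Mfge8, which bridges phosphatidylserine to integrins, stood at 197 ± 5.41 and 218 ± 1.62 CPM and did not pass (log2 fold change 0.14, SE 0.07, adjusted p = 0.0777), though it passed with library totals (0.39, adjusted p = 3.47e-04). It also passed when vehicle replicate 1 (0.11, adjusted p = 0.0475) or vehicle replicate 2 (0.17, adjusted p = 0.00101) was left out. Lgals3, galectin-3, a glycan-binding protein that can bridge to Mertk, fell 9.32-fold from 1615 ± 204 to 173 ± 0.576 CPM (adjusted p = 4.97e-10). Cd47, the do-not-eat-me protein, fell 2.59-fold from 335 ± 30.6 to 129 ± 3.78 CPM (adjusted p = 4.89e-08), and Anxa5, which covers exposed phosphatidylserine, fell 1.53-fold from 352 ± 10.3 to 229.6 ± 7.23 CPM (adjusted p = 1.12e-05). With the length trend removed Anxa5 stood at -0.2 on the log2 scale, from -0.62, and Cd47 at -1.68, from -1.37, both still called. In the list of 14 bridging and signal proteins, 10 were tested: 4 rose, 5 fell and 1 did not pass, with a median of -0.24 (Thbs1 and C1qb passed the filter through vehicle alone). The shares over all genes tested were 35.7% higher and 36.3% lower.

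Of 13 other receptors for dying cells, 9 were tested, 8 fell and 1 rose, with a median of -1.47, where 36.3% of all genes tested fell. Of the 8, Timd2 and Itgb3 passed the count filter through the vehicle libraries alone, and without Rb1 replicate 1 the higher calls were 0. Cd300lf, a receptor that binds phosphatidylserine and helps engulfment in mice, fell 3.98-fold from 69.1 ± 3.70 to 17.4 ± 1.65 CPM (adjusted p = 1.19e-08). Cd300a, an inhibitory receptor for the same lipid, fell from 109.5 ± 4.07 to 39.5 ± 1.73 CPM, 2.78-fold (adjusted p = 3.20e-08). Havcr2 (TIM-3) fell 3.39-fold from 20.4 and 23.6 CPM to 6.40 and 6.55 CPM (adjusted p = 4.05e-07), and Cd14, the LPS co-receptor that also tethers dying cells, fell 2.60-fold from 301 ± 30.5 to 116 ± 0.252 CPM (adjusted p = 5.29e-08). The genes that act inside the cell after binding were divided, with 8 of 16 tested higher, 6 lower and 2 that did not pass (median 0.13). Of all genes tested, 35.7% were higher and 36.3% lower. Elmo1 and Dock2, which form an exchange factor for Rac, rose 3.33-fold (37.2 ± 3.34 to 124 ± 1.16 CPM, adjusted p = 1.43e-08) and 1.91-fold (96.2 ± 2.48 to 184 ± 2.34 CPM, adjusted p = 3.18e-07). With the length trend removed both were still called, at 1.01 for Elmo1 and 0.27 for Dock2 on the log2 scale, from 1.73 and 0.94. Rhog, the small GTPase that recruits Elmo proteins, fell 1.70-fold from 112 ± 0.538 to 65.6 ± 0.782 CPM (adjusted p = 2.73e-06). With the length trend removed Rhog stood at -0.27 on the log2 scale, from -0.77, still called. Map1lc3b, the LC3 protein placed on phagosomes and autophagosomes, fell 2.63-fold from 283 ± 25.8 to 108 ± 1.82 CPM (adjusted p = 3.81e-08).

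Stab1 and Cd93, receptors shared by macrophages and endothelium, were both lower. Stab1 (ENSMUSG00000042286, chromosome 14, 31139013 to 31168641, minus strand) stood at 42.9 and 43.7 CPM under vehicle and at 34.1 and 30.7 CPM under Rb1. The groups did not overlap, and Stab1 fell 1.33-fold, from 43.3 ± 0.568 to 32.4 ± 2.43 CPM (a log2 fold change of -0.42, SE 0.09, adjusted p = 0.00154). Library totals took this call away (-0.17 on the log2 scale, adjusted p = 0.143), and so did leaving out Rb1 replicate 2 (-0.33, adjusted p = 0.0528). Stab1 shares 112 exon bases, 1.09% of its own, with Nt5dc2 on the other strand, which had 939 and 900 counts under vehicle and 810 and 839 under Rb1, and whether counting used strand is not stated. Cd93 (ENSMUSG00000027435, chromosome 2, 148436640 to 148443563, minus strand) had 84 and 85 counts under vehicle and 25 and 13 under Rb1. Both Rb1 libraries were far below, though they differed from each other, and Cd93 fell 5.25-fold from 5.04 ± 0.0198 to 0.960 ± 0.409 CPM (a log2 fold change of -2.38, SE 0.30, adjusted p = 2.51e-05).

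Thbd (thrombomodulin), the only tested relative of Cd93 among 3, passed the filter through vehicle alone and fell 26.4-fold from 8.38 and 7.61 CPM to 0.400 and 0.206 CPM (adjusted p = 1.20e-07). Stab2, the paralogue of Stab1 in liver sinusoids, had 12, 7, 1 and 2 counts in the same order of libraries and was not tested, and its ratio of vehicle to Rb1 was 7.44 with an exact 95% interval from 2.19 to 39.3. Summed over 8 endothelial markers the level was 16.8 to 18.8 CPM under vehicle and 6.40 to 6.55 CPM under Rb1. Of those markers Pecam1 and Vwf were tested and fell (Pecam1 passed the filter through vehicle alone), while Tek and Lyve1 were at 0 in all 4 libraries.

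Cell type markers did not all move the same way. Of 11 macrophage markers, 8 were tested and 8 fell. For this and the marker counts below, 36.3% of all genes tested fell and 35.7% rose. The summed level of the macrophage markers was 1245 to 1285 CPM under vehicle and 649.98 to 650.02 CPM under Rb1. Vsig4 and Clec4f, markers of resident macrophages, were at 0 in every library. Csf1r, the receptor for macrophage colony-stimulating factor, fell 2.09-fold from 256 ± 24.3 to 123 ± 2.72 CPM (adjusted p = 3.47e-07). Of 14 dendritic cell markers 7 were tested, of which 4 fell and 2 rose (Xcr1 and Cd24a passed the filter through vehicle alone), and the sum of all 14 went from 1341 to 1355 CPM under vehicle to 746 to 781 CPM under Rb1. Over 7 fibroblast markers the sum was 10.1 to 10.8 CPM under vehicle and 0.619 to 0.799 CPM under Rb1, and Col3a1 was at 0 in each library. Dcn and Lum, the tested genes of that list, both fell, but they passed the count filter through the vehicle libraries alone. T and B cell markers summed to at most 0.416 CPM. Of the marker genes, Stab2 and Cd5l are also among the other scavenger receptors. Ptprc, the leukocyte marker CD45, rose from 110.3 ± 4.32 to 239 ± 2.59 CPM (adjusted p = 7.93e-08), a log2 fold change of 1.11. Its model of 18313 bases is in the class over 10 kb, where 73.0% of genes tested were higher, with a median of 0.75. In bulk RNA, fewer cells of a type and less RNA per cell cannot be told apart, and the part of these markers in the receptor values was not tested.

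Of 13 regulators that phagocytes use to set receptor genes, all were tested: 6 fell, 2 rose and 5 did not pass, with a median of -0.07. Over all genes tested 36.3% fell and 35.7% rose, so the count of lower regulators lay near that share. Maf, a macrophage transcription factor, fell 18.1-fold from 25.2 ± 2.90 to 1.39 ± 0.292 CPM (adjusted p = 5.42e-09). Nr1h3, the lipid-sensing receptor LXR-alpha, fell 7.51-fold from 12.8 ± 1.28 to 1.70 ± 0.362 CPM (adjusted p = 1.78e-07). Stat6, which relays interleukin-4, fell from 222 ± 20.2 to 123 ± 2.27 CPM, 1.81-fold (adjusted p = 1.73e-06), and Spi1, named above, fell 1.82-fold (adjusted p = 2.79e-06). Under library totals 4 of these regulators rose in place of 2, and with log2(FPKM + 1) and no filter 0 did.

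Several uptake receptors, among them Axl, Mertk and Lrp1, are cut from the surface by metalloproteases. The list of 12 sheddases and inhibitors had 10 tested genes, of which 6 rose, 2 fell and 2 did not pass, with a median of 0.31. Over all genes tested 35.7% rose and 36.3% fell, and a link between sheddase and receptor levels was not tested. Adam10 rose 2.49-fold from 77.8 and 83.8 CPM to 208 and 195 CPM (adjusted p = 3.99e-08), and Adam9 rose 1.51-fold from 113 ± 7.35 to 169.7 ± 1.66 CPM (adjusted p = 2.19e-05). Adam17, which cuts Mertk, rose from 136 ± 11.2 to 172 ± 0.750 CPM (a log2 fold change of 0.33, adjusted p = 0.00209), but it stood at -0.06 (adjusted p = 0.39) with the length trend removed. Adam8, a protease of activated myeloid cells, fell 5.24-fold from 417 ± 23.5 to 79.6 ± 4.02 CPM (adjusted p = 6.61e-10). Furin, which activates such proteases and cuts Lrp1 into its chains, fell 1.72-fold from 335 ± 6.28 to 194 ± 5.55 CPM (adjusted p = 1.38e-06). With the length trend removed, 3 of the list rose in place of 6.

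**Figure D4:**
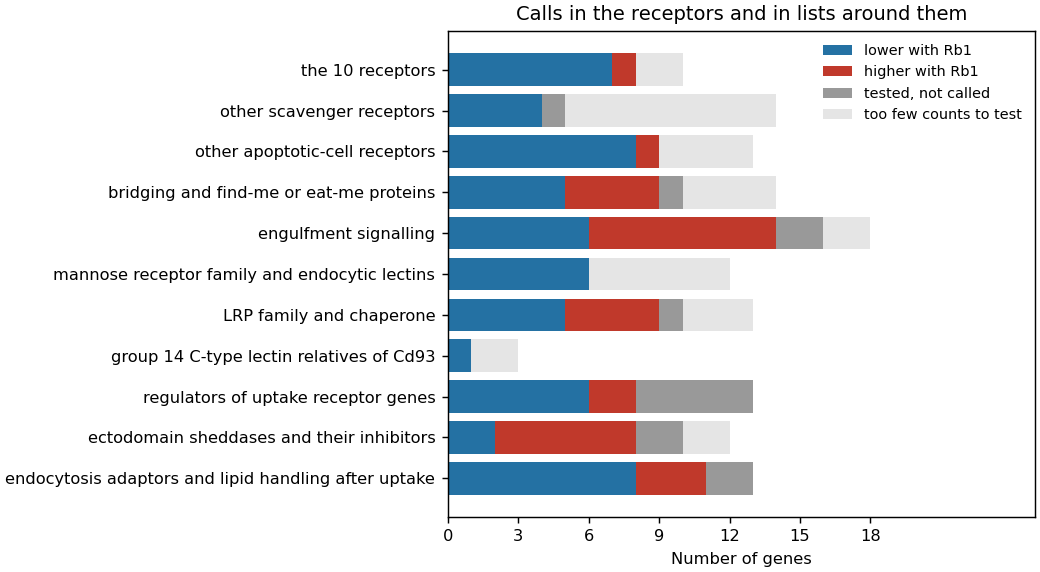
Number of genes lower under Rb1 (blue), higher (red), tested and not called (dark grey) and with too few counts to test (light grey) for the 10 receptors and for 10 lists of related genes. Among the receptors 7 were lower and 1 higher, the lists of other apoptotic-cell receptors and of mannose receptor relatives held 8 and 6 lower genes, and engulfment signalling held 8 higher and 6 lower. Of all genes tested, 36.3% were lower and 35.7% higher.

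The receptor genes are long, and in these libraries length and change moved together. Of 4899 tested genes with models of 5 kb and over, 56.9% were higher and 20.2% lower, with a median log2 fold change of 0.43. Of the receptors, 7 tested genes belong to that class, and 6 of them were lower and 1 higher. Of these 6, Mrc1 and Axl passed the count filter through the vehicle libraries alone, so the count describes the genes that passed. Lrp1, with a model of 17717 bases, and Stab1, with 10288, belong to the 1061 genes over 10 kb, of which 73.0% were higher and 10.5% lower, with a median of 0.75. Once the trend with length was removed, Lrp1 stood at -1.77, Stab1 at -1.01, Msr1 at -2.45, Axl at -2.90, Cd93 at -2.73 and Cd36 at -0.35 on the log2 scale, each still called, and Scarb1 lost its call as given above.

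**Figure D5:**
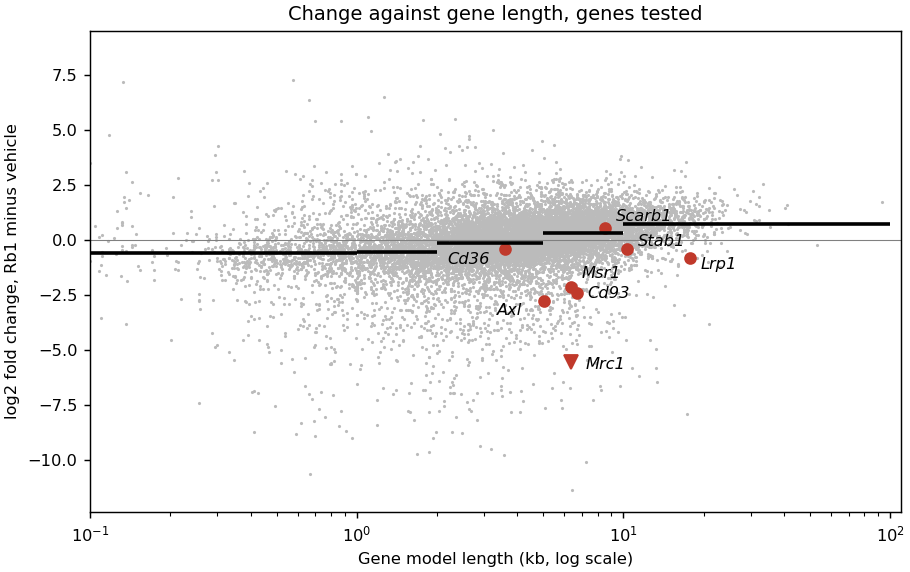
Log2 fold change (Rb1 minus vehicle) of all genes tested against gene model length in kb on a log axis, with black lines at the median of 5 length classes and the tested receptors in red. The medians climb from -0.60 under 1 kb to 0.75 over 10 kb, Lrp1 and Stab1 lie under the line of their class, Scarb1 lies just above its own, and the triangle marks Mrc1 at its bound.

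Replicate numbers also stand in the batch entry of the labels, so the change was also taken within each replicate. The log2 fold changes within replicates 1 and 2 were -1.87 and -2.47 for Msr1, -2.70 and -2.87 for Axl, and -2.01 and -2.91 for Cd93. Lrp1 stood at -0.74 and -0.93, Stab1 at -0.33 and -0.51, Cd36 at -0.42 and -0.43, and Scarb1 at 0.54 in both. Each of these 7 genes thus kept its direction in both replicates, which groups that do not overlap must do. Mrc1 had 0 counts under Rb1 in each.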

How the data were processed

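RNA of 2 vehicle and 2 Rb1 libraries of DC2.4 cells was compared. The authors deposited raw counts per gene and FPKM values with gene lengths, and replicates were not pooled. The sources used here give no aligner, counter, kit or strand. GRCm39 and mm39 stand in the submitters' processing notes, but 98.3% of the table's coordinates for 54409 gene IDs are identical to GENCODE M21, so they are named GRCm38. The deposited FPKM divide by 0.908 and 0.943 (vehicle) and 1.09 and 1.09 (Rb1) times the count total.

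Counts were tested with edgeR 4.0.16 (two-sided quasi-likelihood test, TMM, filterByExpr, robust, a model of group alone with 2 residual degrees of freedom) in R 4.3.3. The Benjamini-Hochberg adjustment ran over 13518 genes. The procedure was tested on simulated data. Intervals are exact 95% intervals, and they and the floors cover counting error only. Alternatives were other scalings, filters, DESeq2 1.42.0, limma 3.58.1 on counts and on FPKM, removal of each library's length trend (lowess), the replicate block and each library left out. The batch entry makes the replicate numbers pair the samples, and same-numbered deviations correlated at -0.05. Replicates did not agree within sampling noise (chi-square per gene 11.8 for vehicle, 2.87 for Rb1). The receptors, motifs and all lists were chosen with earlier results of these data known. Named genes are the 10 receptors, up to 4 called genes with the smallest p per list, fixed relatives and ligands, and cell type markers. Sequences are from RefSeq. A few list genes are left out and not reported here.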

Additional observations from a re-analysis of the deposited data

How the results depend on the processing

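Of 124 values of the 8 tested receptors under alternatives, 119 kept their direction and their side of the threshold and 5 lost the call. The latter were Cd36 and Stab1 with library totals (log2 fold changes -0.18 and -0.17), Scarb1 with the length trend removed (0.05, and 0.06 with the replicate block), which leaves 0 receptors called higher in both, and Stab1 without Rb1 replicate 2. Leaving out each library in turn put Stab1 between -0.49 and -0.33 (adjusted p between 4.44e-06 and 0.0528), the receptors called lower between 7 and 8 and all genes called lower between 4239 and 5160. The replicate block changed no receptor's call. It and the fits without a library keep 1 residual degree of freedom. Adam17 turned to -0.06 with the length trend removed, with and without the block. Library totals moved the median of all genes to 0.23 and the share of calls that were higher to 62.6%, from 49.6%. Axl and Cd93 have no value in the filtered FPKM fits, where the mean FPKM had to reach 0.5. Depth limits Mertk, Marco, Tyro3 and Stab2. The cause of these shifts was not tested.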

Other observations

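The genes whose profile over the 4 libraries was most like that of Scarb1, the receptor with the largest rise, were Fbxw4, Gpatch2l and Il18rap. Their root mean square difference in centred log2 CPM was 0.0119, 0.0135 and 0.0138. Fbxw4 had 229 and 225 counts under vehicle and 404 and 375 under Rb1. The likeness rests on 4 libraries in 2 groups. No such list is given for Mrc1, since with 0 counts in both Rb1 libraries its log2 CPM there is set by the prior count of 2.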
